A study of Mus musculus with 6 samples.

Results

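The 10 genes described here mark the epithelial or the mesenchymal state of a cell, and were followed in sorted colon tumor cells with or without knockdown of HIF-1α. They were chosen by name, and all 10 were found among the 22880 genes of the deposited table: Cdh1, Epcam and Krt8 on the epithelial side, Cdh2 and Vim on the mesenchymal side, and Snai1, Snai2, Twist1, Zeb1 and Zeb2, the transcription factors best known for driving the passage from the first state to the second. The cells were MC-38GFP, mouse colon adenocarcinoma cells labelled with GFP, transduced with pLKO.1-puro, a lentiviral vector with puromycin resistance. Mock cells carried the mock construct and HIF-1α-KD cells a construct against HIF-1α, the oxygen-sensitive subunit of the hypoxia-inducible factor. Both groups were grown as orthotopic tumors in the wall of the cecum of C57BL/6J mice, without earlier passaging in vivo, and living CD45-, CD31-, GFP+ cells were sorted for RNA sequencing. There were 3 Mock and 3 HIF-1α-KD libraries. It is not stated whether a library is 1 tumor, nor whether the knockdown cells are 1 clone, so p-values measure only the spread between these libraries. The comparison asks whether tumor cells that make less HIF-1α differ in the genes of either state.

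Epithelial cells are held together by E-cadherin (Cdh1) and Epcam and are braced by keratins such as Krt8, whereas mesenchymal cells carry N-cadherin (Cdh2) and vimentin (Vim). In epithelial-mesenchymal transition the zinc finger factors Snai1, Snai2, Zeb1 and Zeb2 bind E-box sequences in epithelial promoters and repress them, and the basic helix-loop-helix factor Twist1 acts in the same program. Hypoxia is known as one of the signals that can induce these factors in carcinomas.

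The libraries held 19845852 to 30809139 reads on genes. Hif1a, the gene targeted by the knockdown, had normalized counts (reads divided by one factor per library) of 6914, 5424 and 4945 in Mock 1 to 3 and of 697.3, 3142 and 1928 in HIF-1α-KD 1 to 3. The groups did not overlap, and the fit across all genes with limma gave a log2 fold change of -1.82 (SE 0.46, adjusted p = 0.219). Mock 3 stood apart from the other libraries for many genes of the epithelial side that had few reads, and HIF-1α-KD 3 for leukocyte markers. Their values are given beside the results that they touch.

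The sequence before the start site is shown for 4 of the genes: Vim and Twist1, whose groups did not overlap, and Krt8 and Epcam, which were both highest in Mock 3. Each run is the 250 bases before the RefSeq start site (GRCm38.p6), 5′ to 3′ on the strand of the gene, and capitals mark CAGGTG or its reverse complement CACCTG, the E-box form bound by the Snai and Zeb factors, and ACGTG or its reverse complement CACGT, the core of the hypoxia response element. The windows are chr2:13574061-13574310 (+) for Vim, chr12:33957421-33957670 (+) for Twist1, chr15:102004343-102004592 (-) for Krt8 and chr17:87635729-87635978 (+) for Epcam. The GENCODE annotation used for the gene coordinates given with the values starts Vim and Krt8 further upstream, so that the Vim window and most of the Krt8 window lie inside those genes there.
Vim: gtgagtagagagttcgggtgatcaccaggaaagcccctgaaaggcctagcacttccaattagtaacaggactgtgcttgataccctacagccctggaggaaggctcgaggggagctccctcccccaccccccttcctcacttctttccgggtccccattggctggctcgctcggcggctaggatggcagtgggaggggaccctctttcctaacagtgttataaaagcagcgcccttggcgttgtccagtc
Twist1: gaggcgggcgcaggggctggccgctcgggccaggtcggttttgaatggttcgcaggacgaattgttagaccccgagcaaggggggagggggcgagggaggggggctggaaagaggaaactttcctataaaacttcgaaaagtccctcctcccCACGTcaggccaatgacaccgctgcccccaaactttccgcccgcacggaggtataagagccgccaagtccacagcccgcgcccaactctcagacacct
Krt8: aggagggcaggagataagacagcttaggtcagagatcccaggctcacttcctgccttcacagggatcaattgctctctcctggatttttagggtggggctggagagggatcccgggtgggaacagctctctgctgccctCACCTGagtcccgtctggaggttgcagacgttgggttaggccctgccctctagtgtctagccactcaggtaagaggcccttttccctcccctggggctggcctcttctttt
Epcam: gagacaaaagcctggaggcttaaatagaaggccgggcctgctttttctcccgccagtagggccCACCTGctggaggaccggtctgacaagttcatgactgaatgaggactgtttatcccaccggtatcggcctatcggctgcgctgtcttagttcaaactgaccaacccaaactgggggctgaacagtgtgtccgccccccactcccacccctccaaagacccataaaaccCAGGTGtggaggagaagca
The Epcam window held 2 E-boxes, which began 187 and 19 bases before the start site. The Krt8 window held 1, which began 111 bases before it. Twist1 had 1 match to the hypoxia response core, 98 bases before the start, and no E-box of this form, and Vim had neither motif. Windows were read for 6 of the 10 genes, and of the other two genes the Snai1 window (chr2:167537945-167538194, +) held 1 E-box, 126 bases before the start, while the windows of Zeb2 held neither motif. Of all 32851 windows of this length, 17.2% held the E-box and 16.6% the hypoxia response core on either strand. A match is a stretch of letters and no measured site of binding.

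The mesenchymal side was expressed in every library and the epithelial side close to the lower end of the scale. On the scale of FPKM (reads per kilobase of transcript and scaled to the reads of the library), which allows levels of different genes to be compared, Vim had a mean of 2494 over the 6 libraries and ranked 23rd of all genes. The means of the 5 transcription factors were 33.6 for Zeb1, 23.7 for Snai1, 18.1 for Twist1, 14.5 for Zeb2 and 11.97 for Snai2, and Cdh2 followed with 9.17. Krt8 (0.971), Cdh1 (0.732) and Epcam (0.197) had mean FPKM below 1. Thus 6 of the 10 genes had a mean above 10 and 3 a mean below 1, against 6941 and 12103 of all 22880 genes.

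The order of these levels had 2 clear steps. The lowest FPKM of Vim in any library was 1957 and the highest of Zeb1 was 37.8. From Zeb1 to Cdh2, each gene overlapped its neighbor in the order: Zeb1 was between 25.3 and 37.8 FPKM, Snai1 between 17.3 and 38.2, Twist1 between 13.4 and 24.1, Zeb2 between 11.7 and 18.8, Snai2 between 7.52 and 16.0 and Cdh2 between 7.85 and 11.3. The next step lay between Cdh2 and the epithelial genes, whose highest FPKM was 4.15 for Krt8, 1.31 for Cdh1 and 0.719 for Epcam, each of them in Mock 3. The ranges of the 3 epithelial genes overlapped, and the place of Krt8 above Cdh1 came from its mean, since the medians were 0.621 for Cdh1 and 0.315 for Krt8. The FPKM ratio of N-cadherin to E-cadherin was between 6.69 (Mock 3) and 20.9 (Mock 2) in the Mock libraries and was 14.0, 23.4 and 11.6 in HIF-1α-KD 1 to 3. The neural cadherin exceeded the epithelial one in every library, and the ratios of the groups overlapped.

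**Figure D1:**
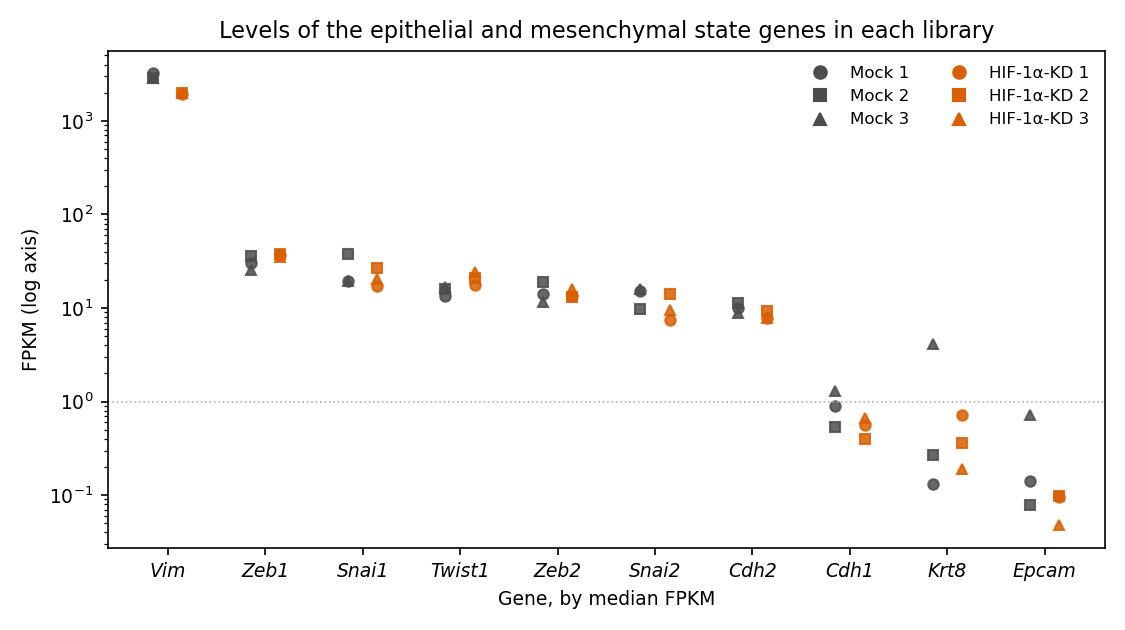
FPKM of the 10 genes in each of the 6 libraries on a log axis, genes ordered by their median, Mock in grey and HIF-1α-KD in orange, with a dotted line at 1 FPKM. Vim lies far above the rest, the 5 transcription factors and Cdh2 lie between 7.52 and 38.2, and the epithelial genes lie lowest, with Mock 3 (grey triangle) on top in each of them.

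The cells are described as a colon line, and markers of intestinal epithelium were near 0. Of 14 such markers, 12 had a mean FPKM below 1 and none was above 10. The summed FPKM of the list was between 2.27 and 12.9 in Mock and between 1.79 and 3.95 in HIF-1α-KD libraries, with the highest sum in Mock 3. Cdx2, the homeobox factor that defines intestinal identity, had a highest normalized count of 2.416, and Fabp2, the fatty acid binding protein of enterocytes, one of 1.199. The markers that were seen best were Lgals4 (mean FPKM 1.41), Car1 (1.10) and Cdh17 (0.668).

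Between the groups, none of the 10 genes reached an adjusted p under 0.05 in limma, where 47 of 12014 tested genes did (0.391%). With edgeR none did either, and DESeq2 called 1 of the 10, Vim (2.36% of all tested genes). Of the 10 genes, 9 were tested, and Epcam was too low to enter the fit. Of the 9, 1 had an unadjusted p under 0.05, Vim, which was lower in HIF-1α-KD cells (12.7% of all tested genes in either direction, 5.69% lower and 7.04% higher). In 3 of the 9 the groups did not overlap, against 19.2% of all tested genes: Vim and Cdh2 lay lower in each HIF-1α-KD library (8.75% of all tested genes) and Twist1 was higher (10.4%). The fold change was above 0 for 2 genes and below 0 for 7, with a median of -0.32 on the log2 scale, and the median of all tested genes was 0.02. Leaving out 1 library moved the number of genes with an unadjusted p under 0.05 to at most 3 of 9, reached without Mock 2.

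**Figure D2:**
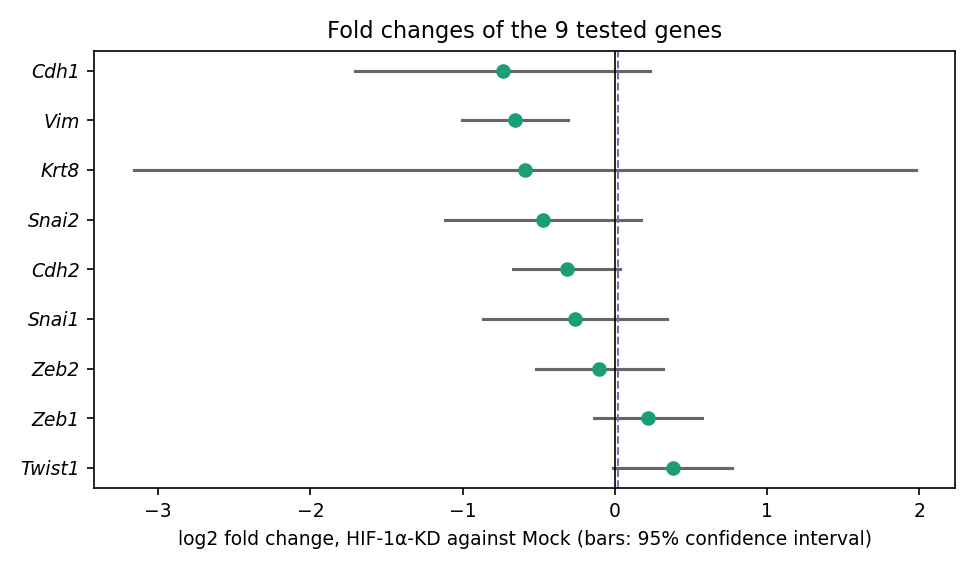
Log2 fold change of HIF-1α-KD against Mock for the 9 tested genes, as points with the 95% confidence interval of limma as bars. The solid line marks 0 and the dashed line the median of all tested genes (0.02). The interval of Vim lies below 0, from -1.01 to -0.31, and those of the other genes include 0.

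Vim (ENSMUSG00000026728, chr2:13573927-13582826, +), the intermediate filament of mesenchymal cells, had the most reads of the 10 genes. Gene coordinates are those of GRCm38 in the GENCODE annotation. Its normalized counts were 123100, 103700 and 110500 in Mock 1 to 3 and 72250, 70560 and 70420 in HIF-1α-KD 1 to 3. The 3 HIF-1α-KD libraries lay within a narrow band, and the lowest Mock library was above the highest of them. The means were 112400 ± 9843 (SD, n = 3) and 71080 ± 1019 (SD, n = 3), so the level in HIF-1α-KD cells was 36.8% lower. The log2 fold change was -0.66 (SE 0.15, 95% confidence interval -1.01 to -0.31), with an unadjusted p of 0.0022 and an adjusted p of 0.196 in limma. On the FPKM scale the values were 3222, 2899 and 2904 in Mock 1 to 3 and 1957, 1990 and 1992 in HIF-1α-KD 1 to 3. Vim ranked 16th, 17th and 24th by FPKM in the Mock libraries and 32nd, 30th and 34th in the HIF-1α-KD libraries, so it remained among the most abundant mRNAs in both groups. In such bulk samples, fewer cells of a type and less RNA per cell cannot be told apart.

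Vim was also the one gene among the 9 tested whose call depended on the tool, although DESeq2 gave no adjusted p for Krt8. DESeq2 on the recovered reads gave a log2 fold change of -0.68 with an adjusted p of 0.00132, where 283 genes (2.36%) had an adjusted p under 0.05 with this tool, whereas edgeR gave an adjusted p of 0.117, with 47 genes (0.391%) called. Leaving out each library in turn gave log2 fold changes between -0.71 and -0.59 and adjusted p-values between 0.219 and 0.451 in limma. Vimentin is also made by fibroblasts and leukocytes. The summed FPKM of 9 fibroblast markers was 2372, 5749 and 4337 in Mock 1 to 3 and 9777, 8261 and 7289 in HIF-1α-KD 1 to 3. The collagens Col1a1 and Col3a1 carried this difference, and the other 7 markers summed to between 756.1 and 1464 in Mock and between 952.2 and 1206 in HIF-1α-KD libraries, so that their sums overlapped. The sum of 10 leukocyte markers was 100.1, 109.6 and 109.8 in Mock 1 to 3 and 67.6, 80.0 and 370.7 in HIF-1α-KD 1 to 3. HIF-1α-KD 3, which held the most leukocyte marker RNA, had 70420 normalized counts of Vim, close to the 72250 and 70560 of HIF-1α-KD 1 and 2. The part of the fibroblast and leukocyte markers in the Vim values was not tested.

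The genes whose log2 normalized counts followed Vim most closely over the 6 libraries were Ampd3 (Pearson r = 0.998), Ing2 (0.995), Fam162a (0.995), Hadh (0.993) and Soat1 (0.992). Their log2 fold changes were -1.14, -0.52, -1.52, -0.55 and -0.48, respectively. Of 12013 other tested genes, 297 had an r above 0.9, and these values describe likeness over 6 libraries that also share the difference between the groups.

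N-cadherin, Cdh2 (ENSMUSG00000024304, chr18:16588877-16809246, -), was measured at 1019, 1079 and 895.1 normalized counts in Mock 1 to 3 and at 782.6, 877.7 and 742.7 in HIF-1α-KD 1 to 3. The groups did not overlap, but the lowest Mock and the highest HIF-1α-KD library lay close to each other, and on the FPKM scale the groups overlapped (8.78 in Mock 3 and 9.24 in HIF-1α-KD 2). The means were 997.7 ± 93.8 and 801.0 ± 69.4 (SD, n = 3 each), and the log2 fold change was -0.32 (SE 0.15, 95% confidence interval -0.67 to 0.04, adjusted p = 0.443 in limma). Without single libraries it was between -0.39 and -0.26.

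Twist1 (ENSMUSG00000035799, chr12:33957671-33959829, +) had the opposite order. Its normalized counts were 556.4, 622.0 and 690.9 in Mock 1 to 3 and 708.6, 805.8 and 926.4 in HIF-1α-KD 1 to 3. The groups were separated by the narrow gap between 690.9 and 708.6. The means were 623.1 ± 67.3 and 813.6 ± 109 (SD, n = 3 each), with a log2 fold change of 0.38 (SE 0.17, 95% confidence interval -0.01 to 0.77, adjusted p = 0.402 in limma), and 0.28 without HIF-1α-KD 3, its highest library. Twist1 is a known gene of fibroblasts too, and whether such cells passed the gate on GFP was not tested. Of the fibroblast markers given above, Col1a1 and Col3a1 were likewise higher in every HIF-1α-KD library, while the sum of the other 7 overlapped. Their part in the Twist1 values was not tested.

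**Figure D3:**
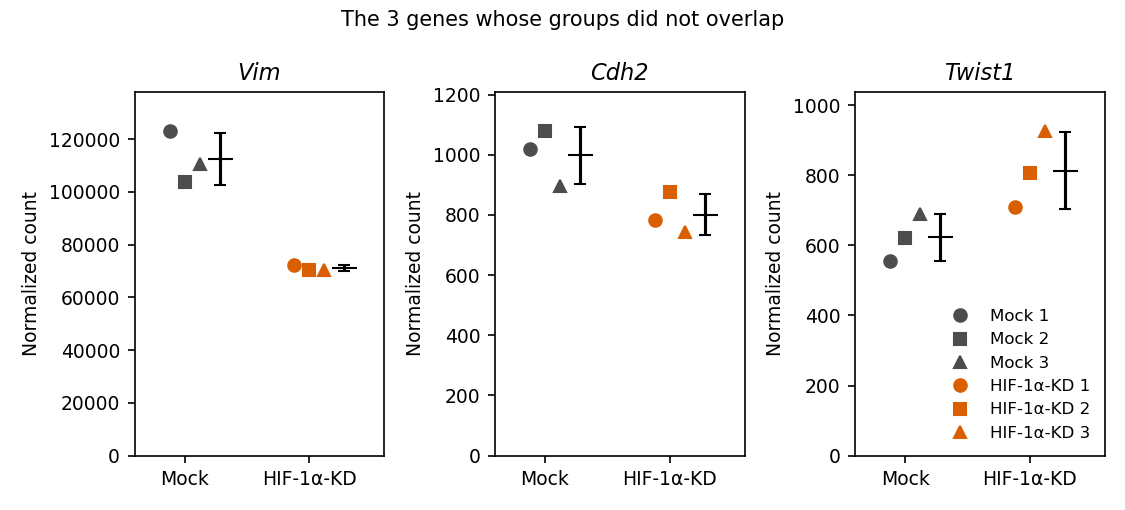
Normalized counts of Vim, Cdh2 and Twist1 in each library (circle, square and triangle for replicates 1, 2 and 3), with the mean ± SD of each group (n = 3) as a black bar. The axes start at 0. All 3 HIF-1α-KD libraries lie below all 3 Mock libraries for Vim and Cdh2 and above them for Twist1, with the widest gap for Vim.

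The other 4 transcription factors had overlapping groups. Zeb1 (ENSMUSG00000024238, chr18:5591860-5775467, +) was measured at 1435, 1633 and 1208 normalized counts in Mock 1 to 3 and at 1716, 1683 and 1550 in HIF-1α-KD 1 to 3. The overlap came from Mock 2 and HIF-1α-KD 3, and the log2 fold change was 0.22 (SE 0.16, 95% confidence interval -0.14 to 0.58, adjusted p = 0.592 in limma), which became 0.11 without Mock 3 and 0.32 without Mock 2. Its paralog Zeb2 (ENSMUSG00000026872, chr2:44983632-45117395, -) was measured at 1282, 1590 and 1053 in Mock 1 to 3 and at 1162, 1110 and 1343 in HIF-1α-KD 1 to 3. The HIF-1α-KD values all lay inside the Mock range, with a log2 fold change of -0.10 (95% confidence interval -0.52 to 0.31, adjusted p = 0.845 in limma), so a change of the size fitted for Vim lies outside this interval. Reads of Zeb2 and of its antisense transcript Zeb2os may not be told apart, since the library kit kept the strand but the strand setting of the counting is not given in the sources used here.

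Snai1 (ENSMUSG00000042821, chr2:167538195-167542814, +) was measured at 813.7, 1486 and 806.9 normalized counts in Mock 1 to 3 and at 694.9, 1038 and 786.6 in HIF-1α-KD 1 to 3. Mock 2 and HIF-1α-KD 2 were the highest of their groups. The log2 fold change of -0.26 (SE 0.27, 95% confidence interval -0.87 to 0.35, adjusted p = 0.724 in limma) rested on Mock 2, without which it was 0.03. The same library decided the sign of Zeb2, which was 0.05 without it. Snai2 (ENSMUSG00000022676, chr16:14705852-14709385, +) had 784.2, 475.6 and 831.1 in Mock 1 to 3 and 378.0, 676.3 and 455.1 in HIF-1α-KD 1 to 3. Replicate 2 was the lowest of the Mock and the highest of the HIF-1α-KD libraries, and the log2 fold change was -0.47 (SE 0.28, 95% confidence interval -1.11 to 0.17, adjusted p = 0.529 in limma). It was -0.72 without Mock 2, -0.71 without HIF-1α-KD 2 and -0.29 without HIF-1α-KD 1. The 2 Snai genes thus had opposite orders among the Mock libraries: Snai1 was highest and Snai2 lowest in Mock 2.

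E-cadherin, Cdh1 (ENSMUSG00000000303, chr8:106603351-106670246, +), had the largest absolute log2 fold change of the 9 tested genes in limma, though not in edgeR or DESeq2, where that of Krt8 was larger, and one of the lowest levels. Its normalized counts were 65.25, 36.37 and 94.22 in Mock 1 to 3 and 39.41, 26.38 and 45.05 in HIF-1α-KD 1 to 3, from 22 to 78 reads per library. Mock 2 lay among the HIF-1α-KD libraries. The log2 fold change was -0.74 (SE 0.43, 95% confidence interval -1.70 to 0.23, adjusted p = 0.515 in limma), and it was -1.10 without Mock 2 and -0.42 without Mock 3. The interval includes both no difference and a difference larger than that fitted for Vim, so a difference in Cdh1 was neither shown nor excluded. The genes most like Cdh1 over the 6 libraries were Thoc3 (r = 0.977), Timm23 (0.974), Erc2 (0.969), Rtfdc1 (0.962) and Fam107b (0.959), and 43 of 12013 tested genes had an r above 0.9.

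Krt8 (ENSMUSG00000049382, chr15:101996698-102004482, -), a keratin of simple epithelia, was measured at 6.155, 11.48 and 190.9 normalized counts in Mock 1 to 3 and at 32.17, 15.59 and 8.086 in HIF-1α-KD 1 to 3. Mock 3 was 5.93-fold above the next library, HIF-1α-KD 1, and held 158 reads, against 5 to 40 in the other 5 libraries. The log2 fold change was -0.59 (SE 1.13, 95% confidence interval -3.16 to 1.98, adjusted p = 0.854 in limma) with all libraries and 0.86 without Mock 3, so its sign was decided by 1 library. On the recovered reads it was -1.88 with edgeR and -1.91 with DESeq2. Epcam (ENSMUSG00000045394, chr17:87635979-87651129, +), an adhesion molecule of epithelia, had 7.386, 3.828 and 37.45 normalized counts in Mock 1 to 3 and 4.826, 4.796 and 2.31 in HIF-1α-KD 1 to 3. These values stood on 31 reads in Mock 3 and on 2 to 6 in the other 5 libraries, and Mock 3 was 5.07-fold above the next. Epcam was not tested, and without Mock 3 the group means were 5.61 and 3.98 normalized counts.

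Krt8 and Epcam were not alone in Mock 3. In 3 wider lists of junction genes, keratins and epithelial regulators together with the intestinal markers, 65 of 69 genes had reads, and 35 of these (53.8%) were highest in Mock 3, against 14.8% of all 16363 genes with reads. Of the 65, 18 (27.7%) were more than 2-fold above every other library there and held 10 or more reads, against 76 genes (0.464%) of all. The 26 junction genes had their lowest summed FPKM in Mock 3 (427.9, against 521.4 to 653.3 elsewhere), although 12 of them were highest there. Ctnnb1, the most abundant of them, was lowest in Mock 3, with 10190 normalized counts against 12500 to 16120. Of the 8 keratins with reads, 7 were highest in Mock 3. Krt19, a keratin of simple epithelia, had 120.8 normalized counts in Mock 3 and at most 16.09 elsewhere. Krt20, a keratin of differentiated gut epithelium, had 71.27 and at most 17.69, and Krt18, the partner with which Krt8 forms filaments, had 49.53 and at most 18.5. HIF-1α-KD 1 was the second highest library for each of these 3 keratins and for Krt8. Being highest in Mock 3 was not limited to the epithelial side. It also held for 10 of 25 mesenchymal genes with reads and 6 of 21 transcription factors of the transition. Of the other cadherins with reads it held for 3 of 8, Cdh17 included. These shares too were above the 14.8% of all genes. Fibroblast markers, with 1 of 9, and leukocyte markers, with 0 of 10, lay below it. Vim in Mock 3, at 110500, lay between Mock 1 and Mock 2.

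**Figure D4:**
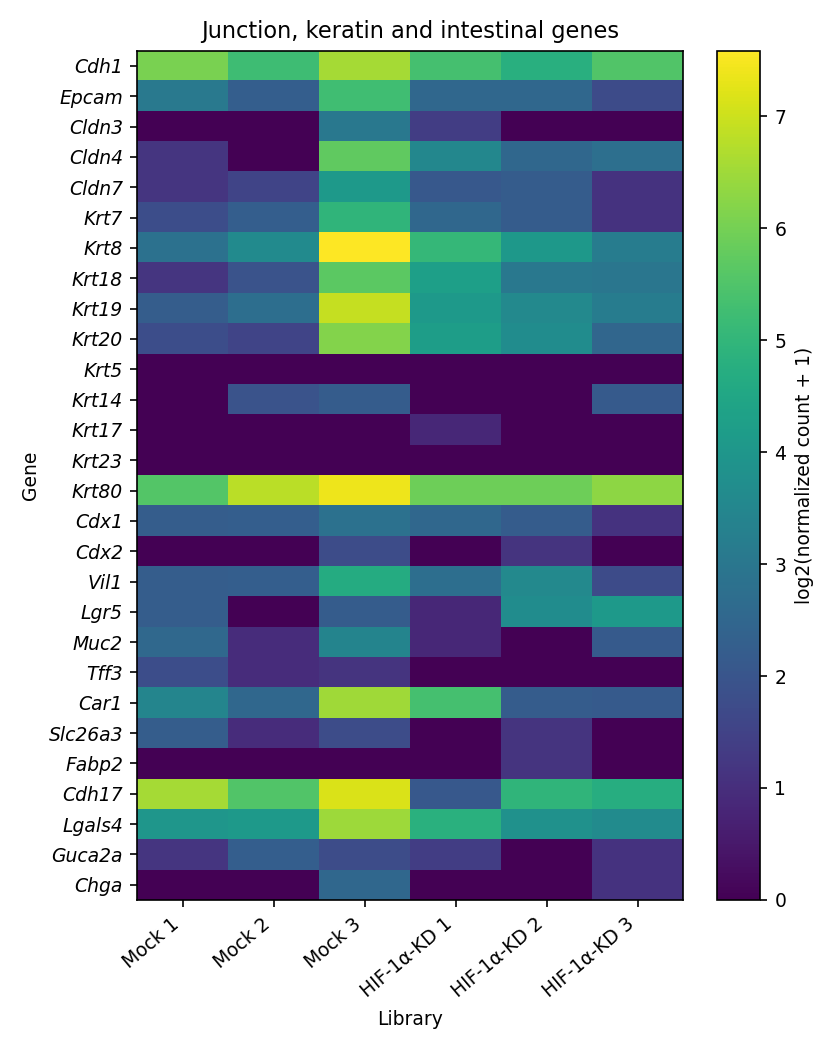
Log2(normalized count + 1) of Cdh1, Epcam, Cldn3, Cldn4, Cldn7, the keratins and the intestinal epithelium markers in each library, from 0 (dark) upward (yellow). The column of Mock 3 is brighter than the others for Epcam, these claudins, Krt7, Krt8, Krt18, Krt19, Krt20, Car1 and Lgals4. A further claudin of the lists, Cldn1, is not drawn and was highest in Mock 1 (263.4 normalized counts, against 149.8 in Mock 3).

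The wider lists placed the 10 genes among others of the same roles. The 6 lists held 108 further genes, of which 60 were tested. None had an adjusted p under 0.05 in limma or edgeR (0.391% of all tested genes in each), and 3 did in DESeq2 (2.36%). In limma 12 had an unadjusted p under 0.05 (12.7% of all tested genes). Of these, 5 were higher and 7 lower in HIF-1α-KD cells (7.04% and 5.69% of all tested genes). The 12 became 7 without Mock 3, 6 without HIF-1α-KD 2 and 16 without HIF-1α-KD 1, so this count moved with single libraries.

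Among 25 mesenchymal genes, Vim and Cdh2 included, 22 were tested, 2 were higher and 4 lower at an unadjusted p under 0.05 (7.04% and 5.69% of all tested genes), and the median log2 fold change was 0.09. Axl, a receptor tyrosine kinase of mesenchymal tumor cells, had a log2 fold change of -0.40 (adjusted p = 0.333 in limma), and Tgfbi, a matrix protein induced by TGF-β, one of 0.55 (adjusted p = 0.287 in limma), both without overlap. The most abundant genes of the list, Sparc (mean FPKM 1625), S100a4 (1518) and Fn1 (1063), were expressed at the order of magnitude of Vim. Their log2 fold changes were 0.25, -0.31 and 0.09, each with overlapping groups, and the signs of S100a4 and Fn1 turned without HIF-1α-KD 3 (0.03 and -0.03), that of Fn1 also without Mock 1 (-0.21). The value of Sparc was 0.04 without HIF-1α-KD 1 and 0.08 without Mock 1.

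Among 24 transcription factors of the transition, the 5 described above included, 20 were tested, 2 were higher and 2 lower at an unadjusted p under 0.05 (7.04% and 5.69% of all tested genes), and the median log2 fold change was -0.14. Foxc2, a forkhead factor, was measured at 82.48, 115.8 and 137.7 normalized counts in Mock 1 to 3 and at 24.93, 38.37 and 54.29 in HIF-1α-KD 1 to 3. The groups did not overlap, and the log2 fold change was -1.53 (adjusted p = 0.210 in limma and 0.0286 in DESeq2). Hmga2, a chromatin protein, and Id1, an inhibitor of basic helix-loop-helix factors, had log2 fold changes of 0.51 and 0.94 with overlapping groups (adjusted p = 0.371 and 0.383 in limma). By mean FPKM the leading further factors were Tcf3 (47.1), Prrx1 (27.5) and Sox4 (16.6).

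The epithelial lists were largely below the level at which they could be tested. Of 26 junction genes 14 were tested, of 10 keratins 3 and of 22 epithelial regulators 4, with medians of 0.09, -0.54 and -0.32 on the log2 scale. The keratin median depended on single libraries. Of the 3 tested keratins, Krt8 had -0.59 with all libraries and 0.86 without Mock 3. Krt20 had 0.30 with all libraries and -0.51 to 1.80 when single libraries were left out. Of the junction genes, 5 had a mean FPKM above 10: the catenins Ctnnb1 (382.5), Ctnna1 (90.0) and Ctnnd1 (29.3), which link cadherins to the cell interior, and Jup (25.3) and Tjp1 (20.46). Pkp1, a desmosomal plaque protein, was the one gene of these 3 lists with an unadjusted p under 0.05 (7.04% of all tested genes were higher at this threshold), and it was higher in HIF-1α-KD cells with a log2 fold change of 0.75 (adjusted p = 0.382 in limma). Tjp1, the scaffold ZO-1 of tight junctions, had a log2 fold change of 0.38 and non-overlapping groups, and Jup, plakoglobin, one of 1.00 with overlapping groups (adjusted p = 0.396 and 0.451 in limma). The value of Jup rested on HIF-1α-KD 1, with 2267 normalized counts against at most 851.3 elsewhere, and was 0.39 without it. Of the regulators, Klf5, Esrp1 and Elf3 had the smallest p, and each had overlapping groups and a mean FPKM below 1.

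Of 11 other cadherins, 6 were tested, and 2 had an unadjusted p under 0.05, with the lower values in HIF-1α-KD cells (5.69% of all tested genes). Cdh17, the cadherin of intestinal epithelium, was measured at 93.56, 44.98 and 141.3 normalized counts in Mock 1 to 3 and at 3.217, 29.98 and 25.41 in HIF-1α-KD 1 to 3. The groups did not overlap, and the log2 fold change was -2.50 (adjusted p = 0.287 in limma and 0.0442 in DESeq2), which became -1.58 without HIF-1α-KD 1. Cdh5, the cadherin of endothelium, had 422.3, 532.1 and 568.9 in Mock 1 to 3 and 285.5, 395.7 and 197.5 in HIF-1α-KD 1 to 3 (log2 fold change -0.84, adjusted p = 0.294 in limma). The summed FPKM of the 8 endothelial markers, of which Cdh5 made up most, was between 3.85 and 6.46 over all libraries. Pecam1, which encodes the CD31 used to sort endothelial cells out, had 33.49 to 75.08 normalized counts with overlapping groups, Tek had at most 41.97, and Cldn5 and Emcn had at most 0.957 and 2.398. In normalized counts Vim and Cdh2, like Cdh17 and Cdh5, thus had lower values in all 3 HIF-1α-KD libraries (8.75% of all tested genes). Cdh11, of the mesenchymal list, had higher values in all 3, with 20.91 to 48.51 against 14.5 to 15.31 in Mock (10.4% of all tested genes). So did Cdh6, which was not tested. The groups of Cdh1, Cdh10, Cdh13, Cdh15 and Cdh24 overlapped. In FPKM those of Cdh5 overlapped as well (4.126 in Mock 1 and 4.167 in HIF-1α-KD 2).

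**Figure D5:**
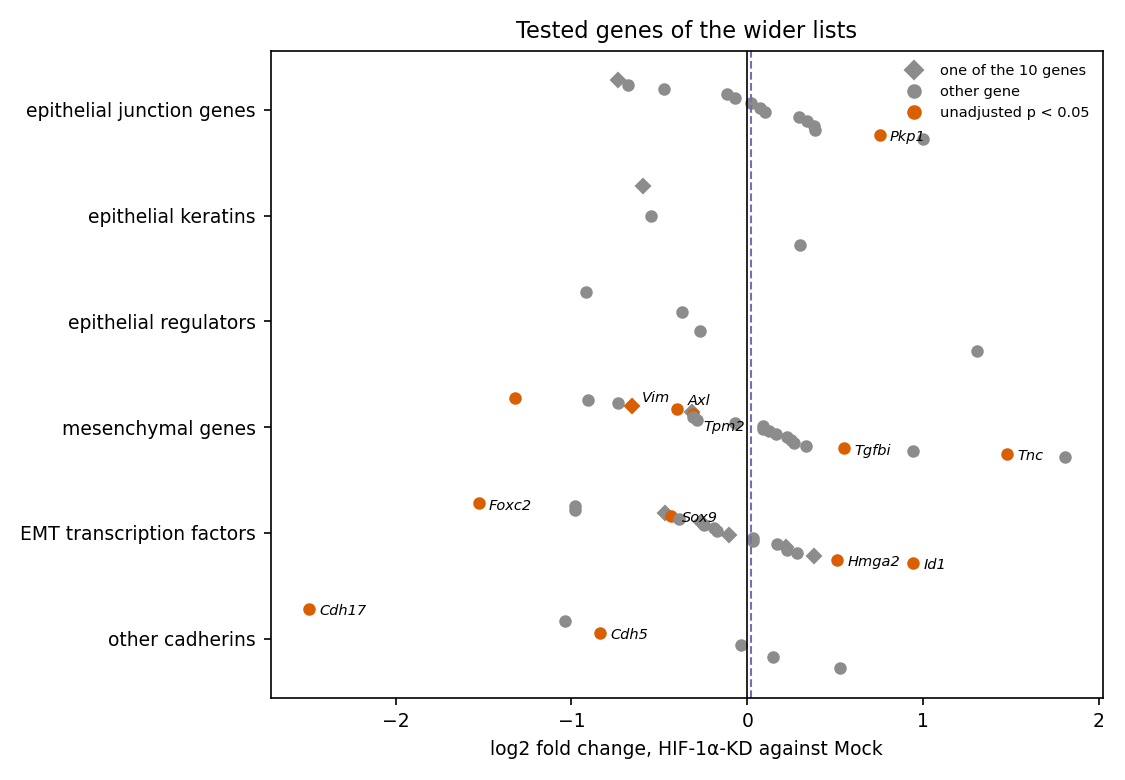
Log2 fold change of HIF-1α-KD against Mock for each tested gene of the 6 wider lists, with diamonds for the 10 genes described above and orange for an unadjusted p under 0.05 in limma. The solid line marks 0 and the dashed line the median of all tested genes (0.02). Genes with an unadjusted p under 0.05 lie on both sides of 0, not all of them are named, and the names of Tnc, Tpm2 and Sox9 were added after their values were seen.

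The cell types that the sort could have let through were read from their markers. Fibroblast markers were abundant, with 8 of 9 at a mean FPKM above 10, and 3 of the 9 had an unadjusted p under 0.05, all higher in HIF-1α-KD cells (7.04% of all tested genes). The median log2 fold change of the list was 0.17, with 7 genes above 0 and 2 below it. The 2 below were Dcn, a matrix proteoglycan, at -0.38 and Lum, another, at -0.16. Leaving out single libraries moved Dcn between -0.57 and -0.05 and Lum between -0.97 and 0.44. Among the 3 genes, Col3a1 and Col1a1, fibrillar collagens, had log2 fold changes of 1.09 and 1.99 with groups that did not overlap (adjusted p = 0.207 and 0.287 in limma), and Col1a1 had 1.16 without Mock 1. Of 10 leukocyte markers, 8 (80.0%) were highest in HIF-1α-KD 3, against 19.3% of all genes with reads, led by Lyz2, a lysozyme of macrophages, with 8877 normalized counts there and 1715 to 2615 elsewhere. Cd3e, which defines T cells, had at most 2.462. Of the 10 genes, Twist1 was at its highest and Cdh2 and Epcam were at their lowest in HIF-1α-KD 3, in normalized counts and in FPKM.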

How the data were processed

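RNA of sorted MC-38GFP cells was sequenced in 3 Mock and 3 HIF-1α-KD libraries, grouped by the knockdown given in the labels. Libraries were prepared with poly-A selection, and reads were aligned with STAR and counted per gene with featureCounts by the authors. The authors' methods name a human assembly, whereas the labels name GRCm38 and the gene identifiers are those of mouse. The deposited normalized counts are a signal, the reads of a gene over a scaling factor that the authors set for the library. The authors also deposited FPKM values and a width per gene. The deposited columns of log2 ratio, p-value and false discovery rate hold the authors' own comparison and were not used.

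Reads were recovered from the steps between low normalized counts, and 100% of values up to 300 reads were whole within a tolerance of 0.1. Genes that passed filterByExpr (minimum count 10) were fitted with limma 3.58.1 (mean-variance trend, two-sided, Benjamini-Hochberg adjustment over 12014 genes) on log2(normalized count + 1), a scale that can understate the change of low genes. edgeR 4.0.16 and DESeq2 1.42.0 on recovered reads, other scalings, pseudocounts and filters, and leaving out each library were tried as alternatives.

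The 10 genes and all lists were chosen with earlier results of these data known. Outside the 10 genes, the genes named were Hif1a, the 3 with the smallest p and the 3 with the highest mean FPKM of each list, and the 5 with the highest Pearson r to Cdh1 and to Vim. Some genes that this rule or a marker list takes in are counted but not reported here. Genes of the lists that illustrate markers or Mock 3, and some further cadherins, were named after their values were seen. Depth of 19845852 to 30809139 reads limits the precision of genes with few reads, and sequences are RefSeq windows of GRCm38.p6.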

Additional observations from a re-analysis of the deposited data

How the results depend on the processing

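Of 135 log2 fold changes of the 9 tested genes under the alternatives, 131 kept their direction and, apart from Krt8 in DESeq2, which has no adjusted p, their side of the adjusted threshold. The signs that turned were those of Krt8 without Mock 3, in a range of -1.52 to 0.86 when single libraries were left out, and of Snai1 and Zeb2 without Mock 2, in ranges of -0.42 to 0.031 and of -0.25 to 0.048. Vim passed the threshold with DESeq2 (-0.68), which brought the count of the 10 genes called from 0 to 1. The count of the wider lists went from 0 to 3 of 60 tested genes with DESeq2, against 2.36% of all tested genes. Scaling by library size alone raised the number of the 10 genes with an unadjusted p under 0.05 from 1 to 2, and leaving out single libraries gave 1 to 3. For the wider lists this number was 12, and 6 to 16 when single libraries were left out. Over all genes, limma called 47 genes at an adjusted p under 0.05, DESeq2 283 and limma without the trend 1. Leaving out each library gave 0 to 38 calls: 2 without Mock 1, 11 without Mock 2, 0 without Mock 3, 38 without HIF-1α-KD 1, 0 without HIF-1α-KD 2 and 8 without HIF-1α-KD 3. The cause of these shifts was not tested.

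The replicate numbers gave no pairs: deviations of same-numbered libraries from their group means correlated at -0.14, -0.12 and 0.02. With the replicate block in limma, 0 of all genes passed the adjusted threshold and 1324 had an unadjusted p under 0.05. The block left the 10 genes at 0 adjusted and 1 unadjusted call, and Vim had an adjusted p of 0.285. Cdh1 had 22 to 78 reads per library, and Krt8 and Epcam had at most 40 and 6 outside Mock 3, which limits the precision of these 3 genes.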
